A study of Mus musculus with 28 samples.

Results

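The genes described here are 39 components of the synaptic vesicle and of the machinery that releases it, listed by name, out of 23453 genes with exonic counts in 28 single cells of the mouse cortex. They are the SNARE genes Snap25, Snap23, Stx1a, Vamp1, Vamp2 and Vamp3, 8 synaptotagmins, 3 synapsins, the vesicle membrane genes Sv2a, Sv2b, Sv2c, Syp, Sypl, Synpr, Syngr1 and Syngr3, the complexins Cplx1 and Cplx2, 3 Rab3 genes, the active zone genes Rims1, Rims2, Unc13a, Unc13b, Bsn and Pclo, the disassembly factors Nsf and Napb, and the synuclein Sncb. All 39 were found in the exonic and in the intronic table, and all 39 had an exonic count in some cell.

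A synaptic vesicle fuses with the presynaptic membrane when a vesicle SNARE, such as the synaptobrevin encoded by Vamp2, zips together with syntaxin and Snap25 on the plasma membrane. Synaptotagmins such as Syt1 are the calcium sensors that couple an action potential to fusion, complexins clamp and then assist the assembled complex, and Unc13 and Rims proteins prepare docked vesicles in the active zone, which Bsn and Pclo scaffold. Many of these families have a neuronal member and a broadly expressed one that serves general membrane traffic, as with Snap25 and Snap23, Vamp2 and Vamp3, or Syp and Sypl, and the comparison of such paralogues between kinds of brain cell is the question followed here.

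By the sample labels, 12 of the cells are neurons and 8 are astrocytes of C57/BL6 genotype from primary culture of cortex, taken with a pipette, and 8 are interneurons of C57/BL6/N genotype from acute cortical slices, taken with a patch clamp pipette. No label ties a cell to an animal or a culture, and library kit and sequencer differ between cultured and slice cells, so culture, genotype, kit and cell type cannot be told apart. The labels' growth text speaks of a 3 month old male mouse for the cultured cells, whereas the study's methods describe cultures from embryos. The table columns carry codes that match no label, and 0 of the 28 columns were assigned to a sample. The columns were therefore read in 3 runs of codes, the 8 columns BRP564 and BRP566 to BRP572 (BRP564 to BRP572 below), the 12 columns BRP528, BRP529 and BRP534 to BRP543 (BRP528 to BRP543 below), and the 8 F columns. Their sizes equal the numbers of cells labelled astrocyte, neuron and interneuron, but size was not used to assign a cell type. These runs were proposed with marker levels in these cells already known, so the differences between them are described without a test, and cells are not replicates of a condition.

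Marker sums, as CPM (exonic counts of a gene scaled to a fixed exonic total per cell), are given beside the members. The summed level of 8 astrocyte markers ranged from 1522 to 6174 CPM in BRP564 to BRP572 and from 191 to 2463 CPM in BRP528 to BRP543. Among the 8, the glutamate transporter gene Slc1a2 went the other way, at 43.2 to 470 CPM and 164 to 2459 CPM, and the other 7 summed to 1424 to 5894 CPM in BRP564 to BRP572, to 1402 and 1153 CPM in BRP528 and BRP529, and to at most 53.4 CPM in BRP534 to BRP543. The summed markers of oligodendrocyte precursors, Olig1, Pdgfra and Cspg4, were at 439 to 1065 CPM (median 746) in BRP564 to BRP572 and at a median of 11.1 CPM in BRP528 to BRP543, where BRP529 had 1134 and BRP541 had 765 CPM. In BRP564 to BRP572 Olig1 was at 432 to 1048 CPM, Pdgfra at 6.42 to 75.1 CPM and Cspg4 at 0 to 71.5 CPM, and in BRP529 and BRP541 Olig1 was at 831 and 503 CPM, Pdgfra at 257 and 200.1 CPM and Cspg4 at 45.6 and 61.9 CPM. The summed level of 7 neuron markers ran from 403 to 1045 CPM in BRP564 to BRP572 and from 3979 to 9816 CPM in BRP528 to BRP543. In the F columns the neuron markers summed to 19.9 to 7471 CPM (median 1438), with F11 and F12 at 79.0 and 19.9 CPM, below every BRP564 to BRP572 cell. There the 3 GABAergic markers summed to between 478 and 11671 CPM, and the 2 glutamatergic markers to at most 4.92 CPM. The astrocyte markers other than Slc1a2 summed to 556, 205 and 188 CPM in F24, F1 and F2 and to at most 2.30 CPM in the other F columns. Some columns stood apart. BRP528 had Gad1 at 1136 CPM and no count of Slc17a6 or Slc17a7, and together with BRP529 it held Aqp4 at 142 and 418 CPM, against at most 28.9 CPM in BRP534 to BRP543. F7 had Slc1a2 at 4350 CPM and the precursor marker Olig1 at 3210 CPM with Pdgfra and Cspg4 at 0. F16 had the microglial Csf1r at 2093 CPM with only 838343 exonic counts. Of the 378 pairs of columns, F11 and F12 resembled each other most, with r = 0.955 over the log2(CPM + 1) of 14444 genes that share each cell's depth, and the next pair reached 0.872. Whether they are 2 cells or 2 libraries of 1 cell cannot be told from the counts. They were kept as 2 columns. F1 had 5.31% of its counts in introns, where the other F columns had 36.3% to 63.0%. The part of these features in the results below was not tested. Exonic totals ran from 12969692 to 19798892 in BRP564 to BRP572, from 17483754 to 26770944 in BRP528 to BRP543, and from 838343 to 14831505 in the F columns.

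Promoter windows of 300 bases (250 before the annotated start and 50 after it, from RefSeq on GRCm38.p6) were at hand for 30 of the 39 members. They are shown for Syn1 and Unc13a, which were at or near 0 in BRP564 to BRP572 or far below their level in BRP528 to BRP543, for Unc13b, the paralogue of Unc13a that was measured in all of the BRP564 to BRP572 cells, and for the opposing pair Syp and Sypl. Each is written from 5′ to 3′ on the strand of its gene. Capitals mark matches, on either strand, to the left part (TTCAGCACC) and right part (GGACAGCGC) of RE1, the element bound by the repressor REST, to the cyclic AMP response element CRE (TGACGTCA), and to the GC box (GGGCGG).
Syn1, chrX:20920869-20921168, minus strand: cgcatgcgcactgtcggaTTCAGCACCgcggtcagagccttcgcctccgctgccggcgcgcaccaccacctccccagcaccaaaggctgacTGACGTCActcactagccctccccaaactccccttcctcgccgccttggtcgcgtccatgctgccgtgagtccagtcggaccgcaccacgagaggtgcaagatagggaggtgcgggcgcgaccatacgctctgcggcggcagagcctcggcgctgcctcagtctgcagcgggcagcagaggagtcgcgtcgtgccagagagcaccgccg
Unc13a, chr8:71671708-71672007, minus strand: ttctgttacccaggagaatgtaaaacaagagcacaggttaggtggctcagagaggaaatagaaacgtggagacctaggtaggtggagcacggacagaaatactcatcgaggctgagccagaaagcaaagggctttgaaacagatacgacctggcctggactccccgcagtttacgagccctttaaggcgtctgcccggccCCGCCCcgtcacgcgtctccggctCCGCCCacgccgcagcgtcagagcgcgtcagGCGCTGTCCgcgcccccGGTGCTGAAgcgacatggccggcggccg
Unc13b, chr4:43058703-43059002, plus strand: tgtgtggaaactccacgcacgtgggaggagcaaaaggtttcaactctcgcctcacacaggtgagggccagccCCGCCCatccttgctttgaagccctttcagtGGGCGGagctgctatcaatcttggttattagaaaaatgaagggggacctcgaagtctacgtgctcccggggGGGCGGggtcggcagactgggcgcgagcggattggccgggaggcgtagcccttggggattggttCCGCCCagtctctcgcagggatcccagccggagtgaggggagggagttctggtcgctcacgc
Syp, chrX:7638330-7638629, plus strand: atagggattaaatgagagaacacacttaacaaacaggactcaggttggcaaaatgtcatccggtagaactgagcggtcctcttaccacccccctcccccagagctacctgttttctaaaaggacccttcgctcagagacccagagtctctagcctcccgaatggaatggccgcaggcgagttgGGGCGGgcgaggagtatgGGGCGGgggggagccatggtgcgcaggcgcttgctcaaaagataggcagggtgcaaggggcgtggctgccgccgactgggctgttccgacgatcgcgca
Sypl, chr12:32953695-32953994, plus strand: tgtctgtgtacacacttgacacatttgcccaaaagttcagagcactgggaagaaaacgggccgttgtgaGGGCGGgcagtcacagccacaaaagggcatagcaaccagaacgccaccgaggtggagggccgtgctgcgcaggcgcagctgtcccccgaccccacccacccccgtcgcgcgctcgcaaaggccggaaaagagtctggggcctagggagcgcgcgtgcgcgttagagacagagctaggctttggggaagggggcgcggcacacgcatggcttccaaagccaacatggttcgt

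The Syn1 window held the RE1 left part 232 bases before the start and the only CRE among the 41 member windows 159 bases before it. In Unc13a the RE1 right and left parts lay 5 and 22 bases after the start, both read on the opposite strand. The Unc13b, Syp and Sypl windows held neither part. Among all 32851 windows, 0.371% held the left part, 0.405% the right part and 1.79% the CRE. Among the 30 members the left part was in Syn1 and Unc13a and the right part in Unc13a. Other members low in BRP564 to BRP572 are not shown. Stx1a, Cplx1 and Rims1 had medians of 0 CPM there, and their windows held neither part. The GC box was matched in 27 of the 41 member windows, from 23 of the 30 members, and in 35.7% of all windows, in Syp and Sypl alike. CG dinucleotides numbered 18 in the median member window and 7 in the median window overall. A match is a description of letters and not a bound site.

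The members were detected in unequal numbers and were unequally abundant. In BRP564 to BRP572 between 20 and 29 members (median 25) had at least 1 exonic count, in BRP528 to BRP543 between 32 and 37 (median 35), and in the F columns between 9 in F16 and 32 in F2 (median 24.5). Their summed exonic level was 1657 to 2781 CPM in BRP564 to BRP572 and 5857 to 14775 CPM in BRP528 to BRP543, so that no cell of the first run reached the second. The F columns had 3376 to 22723 CPM, above every BRP564 to BRP572 cell. Syt11 was the 1 member with a count in all 28 cells. In every BRP564 to BRP572 cell the most abundant member by CPM was Sypl, whereas in the F columns it was Syt1 in F1, Snap25 in F2 and F16, Syt11 in F6, F11 and F12, Napb in F7 and Synpr in F24.

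**Figure D1:**
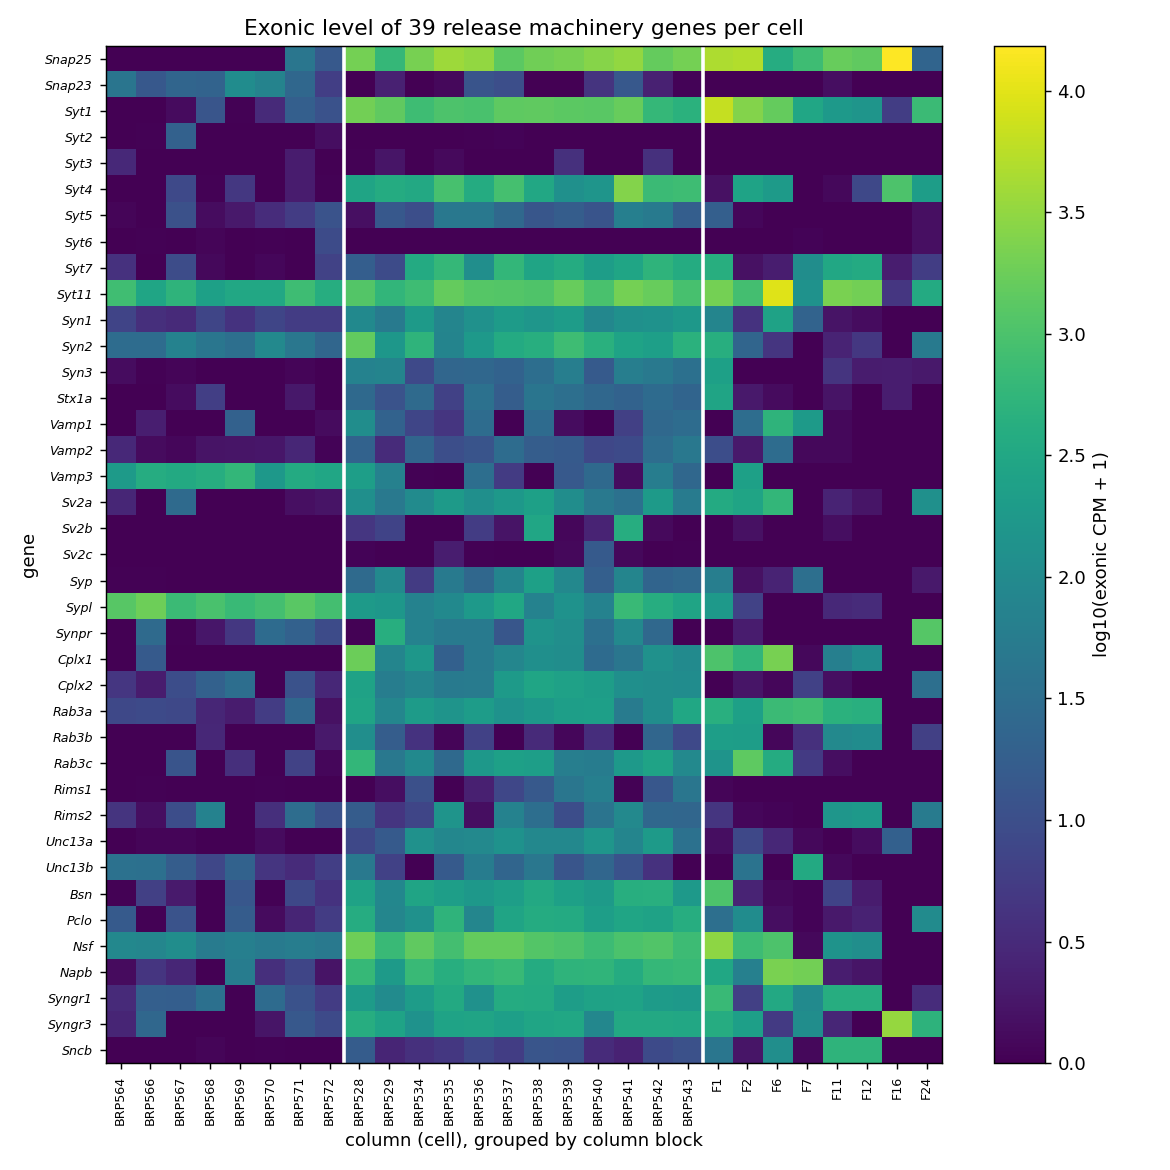
Exonic level of each of the 39 genes (rows) in each of the 28 columns (cells), as log10(CPM + 1), with white lines between the 3 runs of column codes. Most rows are dark in the 8 BRP564 to BRP572 columns and bright in the 12 BRP528 to BRP543 columns, Snap23, Vamp3 and Sypl go the other way, and the F columns alternate between high and 0 from cell to cell.

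To compare BRP528 to BRP543 with BRP564 to BRP572, the median CPM over the cells of each run was taken, and the 33 members with a median of at least 5 CPM in either run were compared. Of these, 27 were at least 4-fold higher in BRP528 to BRP543, against 14.0% of the 9763 genes that entered, and 21 of the 27 had every BRP528 to BRP543 cell above every BRP564 to BRP572 cell, against 4.15% of genes. Snap23, Vamp3 and Sypl were at least 4-fold lower, against 27.0% of genes, and 0 members were lower without overlap, against 5.15%. The median log2 ratio was 5.45 over the 33 members and -0.43 over all genes that entered. Syt11 (3.14-fold) and Rims2 (3.91-fold) fell just outside the 4-fold limit, as Sypl (5.34-fold lower) and Synpr (8.74-fold) fell inside it, and Unc13b had a ratio of 1.11. Syt2, Syt3, Syt6, Sv2b, Sv2c and Rab3b did not reach the minimum. Since many of the members are textbook neuronal genes and the runs were proposed from markers, these counts describe the runs and are no separate evidence of what the cells are.

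The plasma membrane SNARE genes opposed each other. Snap25 (chr2:136713453-136782428, plus strand, GRCm38), the partner of syntaxin in evoked release, ranged from 607 to 3699 CPM in BRP528 to BRP543 with a median of 2083. In BRP564 to BRP572 it was at 0 in 6 cells and at 42.4 and 13.7 CPM in BRP571 and BRP572, so the runs did not overlap and the median was at least 11346-fold higher in BRP528 to BRP543 with the median of 0 set at 3 counts. Snap23 (chr2:120567671-120601255, plus strand), its counterpart in general exocytosis, was at 4.94 to 106 CPM (median 23.0) in BRP564 to BRP572 and at 0 to 13.0 CPM (median 0.824) in BRP528 to BRP543, 27.9-fold lower with overlapping cells. The F columns had Snap25 in all 8 cells, from 21.7 CPM in F24 to 15297 CPM in F16, and Snap23 in F11 alone at 0.456 CPM. Stx1a, the neuronal syntaxin, was at 5.45 to 41.6 CPM (median 25) in BRP528 to BRP543, at 0 in 5 of the BRP564 to BRP572 cells with a highest value of 5.03, and at 275 CPM in F1 with at most 1.19 CPM in the other F columns.

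The vesicle SNARE genes also divided. Vamp3, encoding cellubrevin of recycling endosomes, was at 169.7 to 591 CPM (median 352) in BRP564 to BRP572 and at 0 to 223 CPM (median 18.6) in BRP528 to BRP543, an 18.9-fold lower median. The cells overlapped only through BRP528, at 223 CPM, since the next BRP528 to BRP543 cell, BRP529, was at 67.6 CPM. Vamp2, encoding the main synaptic synaptobrevin, was low throughout, at 0.109 to 2.05 CPM in BRP564 to BRP572 and 2.33 to 46.6 CPM (median 15.2) in BRP528 to BRP543, 22.3-fold higher without overlap. Vamp1 was at 0 in 5 BRP564 to BRP572 cells and reached 19.3 CPM in BRP569, and it was at 0 to 111 CPM (median 12.9) in BRP528 to BRP543. In the F columns each Vamp gene was high in few cells, Vamp1 in F6 (522 CPM), F7 (188 CPM) and F2 (30.3 CPM), Vamp3 in F2 (242 CPM), and Vamp2 in F6 (29.1 CPM) and F1 (8.70 CPM), while F12, F16 and F24 had no Vamp1, Vamp2 or Vamp3 count.

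**Figure D2:**
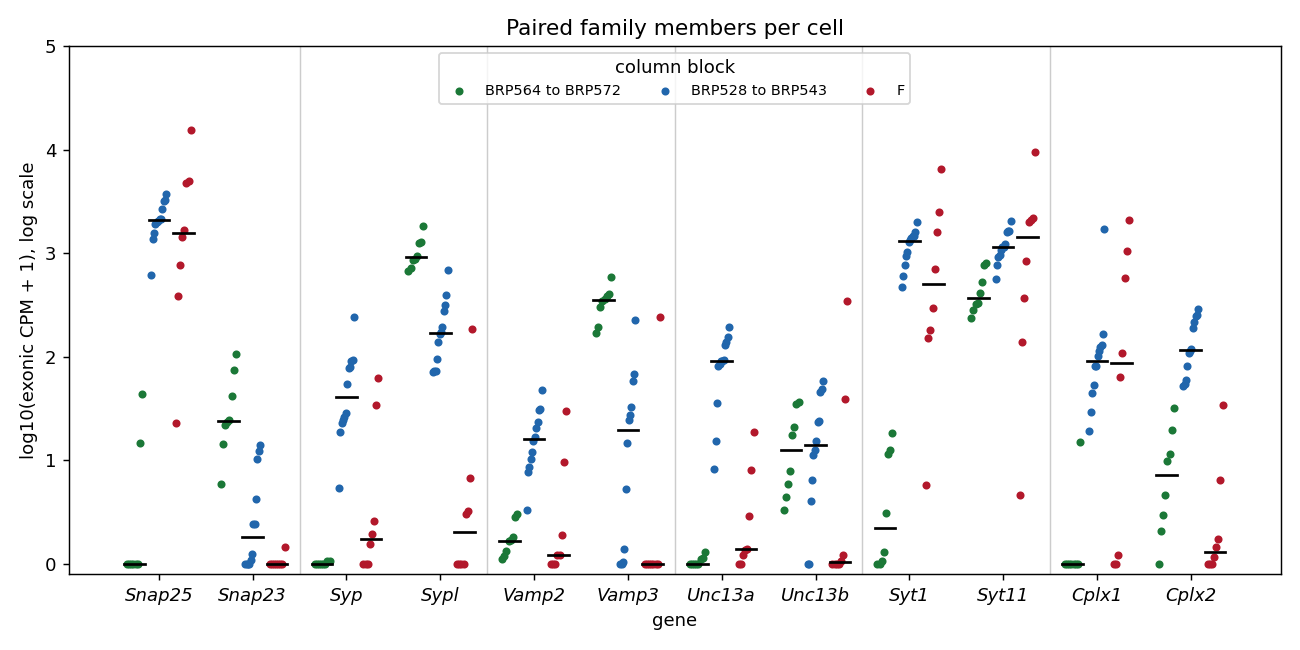
Exonic level of 6 pairs of related genes as log10(CPM + 1), 1 point per cell, coloured by run of column codes, with black bars at the medians. In BRP564 to BRP572 the first member of the Snap25, Syp, Vamp2 and Unc13a pairs lies below its partner, except Snap25 in BRP571 and BRP572. The F cells spread from 0 to the top of the scale.

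Among the calcium sensors, Syt1, the fast sensor of release, was at 468 to 1995 CPM (median 1311) in BRP528 to BRP543 and at 0 to 17.3 CPM (median 1.22) in BRP564 to BRP572. Syt4, which binds calcium poorly and is found on dense-core vesicles, was at 124 to 2521 CPM (median 374) against at most 7.29 CPM. For neither gene did the runs overlap. Syt7, a slow high-affinity sensor, was at 209 to 617 CPM in the 9 cells of BRP534 to BRP543 other than BRP536, at 118 CPM in BRP536, and at only 16.6 and 8.10 CPM in BRP528 and BRP529, with at most 8.34 CPM in BRP564 to BRP572. Syt5 was low, with medians of 16.7 and 1.67 CPM. Syt11, which lacks calcium binding, was the 1 synaptotagmin abundant in every BRP cell, at 236 to 801 CPM (median 368) in BRP564 to BRP572 and 562 to 2063 CPM (median 1157) in BRP528 to BRP543. Syt2, Syt3 and Syt6 were nearly absent from exons, with highest values of 18.6 CPM in BRP567, 2.86 CPM in BRP539 and 7.93 CPM in BRP572.

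The share of each gene in its family was then computed per cell from CPM per kilobase of annotated exon, so that levels could be compared between genes. Except for the syntaxins, a family here held only the genes of the member list, and its other genes were left out. Among the 8 synaptotagmins, Syt11 held 90.8% to 99.96% (median 97.4%) in BRP564 to BRP572 and led in all 8 cells. In BRP528 to BRP543 Syt11 held 27.9% to 55.6% (median 40.1%) and led in 7 of 12 cells. Syt1 held 11% to 45.3% (median 24%) there and led in BRP528 and BRP529. Syt4 held 5.67% to 49.8% (median 23.9%) and led in 3 cells. These leads depend on the length used. The annotated exon of Syt1 is 8338 bases over all transcripts and 4820 in the longest, and that of Syt11 is 5205 and 5020. By CPM not divided by length, Syt1 was above Syt11 in BRP537, BRP538 and BRP540 too. The F cells differed in their leading gene among the 8. Syt1 led in F1 (63.0%), F2 (56.6%), F7 (46.0%) and F24 (40.2%), Syt11 in F6 (88.2%), F11 and F12, and Syt4 in F16 (99.5%). Outside the 8, Syt13 had a median of 544 CPM in F and 0.0255 CPM in BRP528 to BRP543. Syt12 and Syt16 went the other way, with medians of 0 in F and 17.0 and 87.8 CPM in BRP528 to BRP543.

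The synapsins, which tether vesicles to each other and to the cytoskeleton, were present in both BRP runs. Syn2 was at 23.2 to 93.7 CPM (median 37.9) in BRP564 to BRP572 and at 77.0 to 1484 CPM (median 396) in BRP528 to BRP543, 10.4-fold higher with overlap. Syn1 was at 2.16 to 6.52 CPM (median 4.52) and 49.3 to 205 CPM (median 132), 29.1-fold higher without overlap, and Syn3 at 0 to 0.372 CPM and 7.37 to 75.6 CPM. Per kilobase, Syn2 led in all 8 BRP564 to BRP572 cells, with 68.4% to 93.8% (median 82.5%). It led in 8 of the 12 BRP528 to BRP543 cells, with 29.4% to 85.8% (median 53.6%), and Syn1 led in the other 4. That division depends on the length used. The annotated exon of Syn2 is 7031 bases over all transcripts and 3854 in the longest, and that of Syn1 is 3299 and 3261. By CPM not divided by length, Syn1 was above Syn2 only in BRP535 (80.5 against 77.0 CPM) among these 12. In the F columns 5 cells had at least 30 synapsin counts, and of these Syn2 led in 3 and Syn1 in F6 and F7. The exons of Syn3 overlap those of Timp3 on the opposite strand over 1733 bases, and the strand setting of the counting is not given in the sources used here, so reads of the pair may be mixed.

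Among Vamp1, Vamp2 and Vamp3, the only Vamp genes in these shares, Vamp3 held 99.0% to 99.96% per kilobase in BRP564 to BRP572. Vamp4, Vamp7 and Vamp8 were left out, with medians of 19.8, 55.6 and 10.02 CPM there. In BRP528 to BRP543 Vamp4 and Vamp7, also left out, had medians of 56.5 and 42.0 CPM. Among Vamp1 to Vamp3 the lead was divided in BRP528 to BRP543. Vamp2 was ahead in 6 cells (median share 48.5%) and Vamp3 in the other 6 (median 45.1%), while Vamp1 had a median of 10.7% and led in none. Vamp3 ranged there from 0 to 90.3%. Without BRP528 and BRP529, which carried astrocyte markers and had Vamp3 at 82.9% and 90.3%, the median share of Vamp2 was 56.2% and that of Vamp3 25.6%. Among 13 syntaxins, Stx1a held 2.30% to 14.3% (median 6.01%) in BRP528 to BRP543 and at most 0.616% in BRP564 to BRP572, and the endosomal Stx12 led in 9 of 12 and 7 of 8 cells, with medians of 37.9% and 38.1%.

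**Figure D3:**
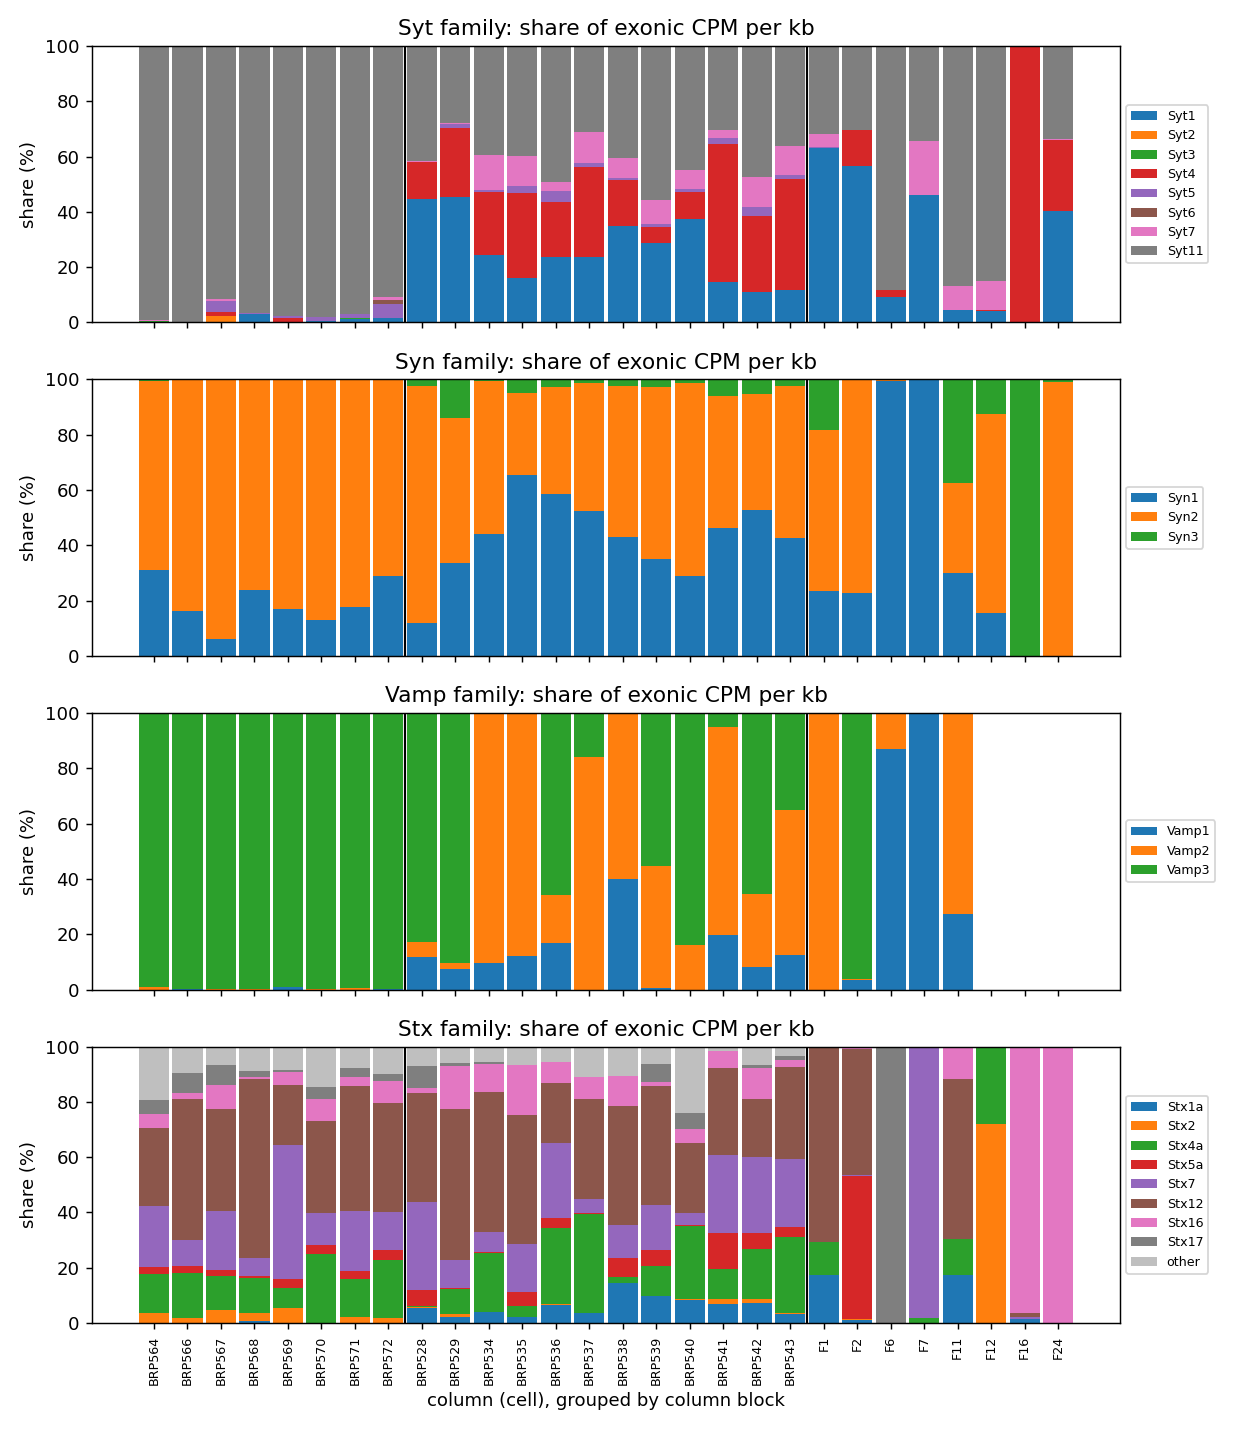
Share of each gene in the exonic CPM per kilobase of its family, 1 stacked bar per cell, for the Syt, Syn, Vamp and Stx families, with black lines between the 3 runs of column codes. The Syt and Vamp bars hold only the genes of the member list. Syt11 and Vamp3 fill the 8 BRP564 to BRP572 bars, the BRP528 to BRP543 bars are mixed, and F12, F16 and F24 have no Vamp1, Vamp2 or Vamp3 count and so no bar there.

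The smaller families were divided in the same cells. Of Snap25 and Snap23 alone, Snap25 held 98.9% to 100.0% in BRP528 to BRP543, and Snap23 was ahead in 6 of the 8 BRP564 to BRP572 cells. Snap29 and Snap47 were left out of these shares. Their medians were 128 and 333 CPM in BRP528 to BRP543 and 112 and 186 CPM in BRP564 to BRP572. Of the Munc13 priming factors, Unc13a was at 7.22 to 193 CPM (median 89.7) in BRP528 to BRP543 and at most 0.303 CPM in BRP564 to BRP572, while Unc13b had medians of 12.9 and 11.6 CPM. Unc13b led per kilobase in all 8 BRP564 to BRP572 cells and Unc13a in 11 of 12 BRP528 to BRP543 cells, the other being BRP528. Unc13a shares 495 bases of exon with Colgalt1 on the opposite strand. Sypl (chr12:32953891-32979860, plus strand), a widely expressed relative of synaptophysin, was at 675 to 1846 CPM (median 906) in BRP564 to BRP572 and 70.8 to 685 CPM (median 169.7) in BRP528 to BRP543. Syp (chrX:7638471-7653256, plus strand), encoding synaptophysin, was at 4.42 to 242 CPM (median 40.2) in BRP528 to BRP543 and at 0 in 6 BRP564 to BRP572 cells, with 2 counts in the run. Even in BRP528 to BRP543, Sypl led the family per kilobase in 9 of 12 cells (median 61.3%), Syp in 2 and Synpr in BRP529. The exons of Syp overlap the opposite-strand Gm14703 over 875 bases.

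Of the SV2 glycoproteins of the vesicle membrane, Sv2a was at 36.0 to 238 CPM (median 116) in BRP528 to BRP543, at most 27.5 CPM in BRP564 to BRP572, and led in 11 of 12 cells. Sv2b stood out in BRP541 (397 CPM, 85.9% of the family) and BRP538 (300.4 CPM, 41.2%) and was at most 5.82 CPM in the other 10 cells. Sv2b and Sv2c had no exonic count in BRP564 to BRP572. Rab3a, the vesicle GTPase, was at 53.9 to 311 CPM (median 182) in BRP528 to BRP543 against 0.543 to 23.6 CPM (median 5.76), and it led its family in all 12 cells. Cplx1 held 22.9% to 93.9% per kilobase of the 2 complexins in BRP528 to BRP543 (median 59.3%) and led in 7 of 12 cells, and it reached 1725 CPM in BRP528 where the other 11 cells had 18.2 to 166 CPM. Of the synaptogyrins, Syngr3 led in 11 of 12 cells (median 75.8%).

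The scaffolds and the disassembly factors were higher in the same cells. Bsn was at 85.6 to 433 CPM (median 231) and Pclo at 81.5 to 530.4 CPM (median 285) in BRP528 to BRP543, against at most 12.9 and 15.3 CPM in BRP564 to BRP572. Nsf, the ATPase that takes spent SNARE complexes apart in all cells, was at 677 to 1799 CPM (median 1063) in BRP528 to BRP543 and still at 47.7 to 111 CPM (median 60.4) in every BRP564 to BRP572 cell, 17.6-fold lower. Napb, its neuronal adaptor, was at 188 to 673 CPM (median 551) against 0 to 57.1 CPM (median 2.21). Rims1 was low in exons (median 8.03 CPM, 0 in 2 cells of BRP528 to BRP543), and Rims2 had medians of 23.4 and 6 CPM. The remaining members of this contrast without overlap were Rab3c (medians 134 and 0.0815 CPM), Syngr1 (206 and 13.5 CPM), Syngr3 (284 and 1.22 CPM), Cplx2 (116 and 6.25 CPM) and Sncb (5.84 and 0 CPM).

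Other genes of the release pathway, 68 in 6 lists, had a smaller median ratio. In the comparison of BRP528 to BRP543 with BRP564 to BRP572, 51 of them entered, 20 were at least 4-fold higher and 4 lower, beside 14.0% and 27.0% of all genes, and their median log2 ratio was 1.47. Of 12 further active zone genes 7 entered and 6 were higher, Ppfia2 and Erc2 among them with medians of 261 and 296 CPM. Of 18 endocytosis genes 17 entered, and 5 were higher, including the neuronal dynamin Dnm1 (197 against 0.489 CPM), while the ubiquitous clathrin heavy chain Cltc had medians of 874 and 899.96 CPM. Among the further fusion genes, Vamp8, a SNARE of endosomes and secretory cells, was lower with no overlap (median 0 against 10.02 CPM). When F was compared with BRP528 to BRP543, 49 of the 68 entered, with 3 higher and 41 lower, beside 0.855% and 93.4% of all genes. Their median log2 ratio was -5.25, and 6 were lower without overlap, beside 17.8% of all genes.

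The F columns were set against BRP528 to BRP543 by the same rule, so that both comparisons share the BRP528 to BRP543 cells. Of 33 members that entered by their medians, 22 were at least 4-fold lower in F and 1, Rab3b, was higher (medians 48.5 and 2.83 CPM), against 93.4% and 0.855% of the 7488 genes that entered. The members' median log2 ratio was -4.79, beside -5.78 over all genes that entered. Without F1 it was -5.82, beside -5.70 over all genes, so the order of members and genes turned when 1 column was left out. Without overlap, 1 member (Cplx2) was lower, against 17.8% of genes, and 0 were higher, against 0.0% of genes. The call of Rab3b was lost without F1 or without F12, where 0 members were higher. With DESeq2 size factors, which moved the median log2 ratio of all genes to -3.54, 7 members were higher and 17 lower, beside 3.42% and 78.1% of genes. With TMM factors (-4.34) 4 were higher and 20 lower, beside 1.91% and 88.3% of genes. With means over cells in place of medians, 3 of 34 were higher and 9 lower, beside 10.9% and 55.0% of genes. The 10 members left uncalled by CPM were Snap25, Syt1, Syt4, Syt11, Sv2a, Cplx1, Rab3a, Syngr1, Syngr3 and Sncb. Their ratios ran from 0.267 for Syt4 to 3.74 for Sncb, and Snap25, Syt11, Cplx1, Rab3a, Syngr1 and Sncb were at least 4-fold higher with DESeq2 size factors. Cplx1, Rab3a and Sncb were also higher with TMM factors, and Sncb without F16. Without F1, however, Syt1, Sv2a and Sncb were at least 4-fold lower. Sncb was lower without F12 too, so its direction turned when 1 column was left out. Syt4 was lower without F16 or without BRP528 and BRP529. In these 4 settings 93.1% to 95.5% of genes were lower.

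In the F columns members varied from cell to cell, as did most genes. Of the 27 members that exceeded 100 CPM in some F cell, 23 were at 0 in another, or 85.2%, beside 94.2% of all genes that exceeded 100 CPM in some F cell. In BRP528 to BRP543 it was 5 of 27, or 18.5%, beside 16.7% of genes, and in BRP564 to BRP572 0 of 5, beside 3.52% of genes. With each cell thinned to 800000 exonic counts the counts were 23 of 27 in F, beside 97.2% of genes, 5 of 26 (19.2%) in BRP528 to BRP543, beside 30.5%, and 0 of 5 in BRP564 to BRP572, beside 9.17%. In F, without the shallow F16 it was 20 of 27, beside 90.7% of genes, and without F12 22 of 27, beside 92.2%. Bsn was at 1038 CPM in F1 and at most 5.92 CPM in the other 7 cells. Synpr was at 1194 CPM in F24, at 1.08 CPM in F2 and at 0 in the other 6. Syngr3 was at 3268 CPM in F16, a cell in which only 9 members had a count, and Rab3c was at 1426 CPM in F2. Nsf was at 2971, 1049 and 745 CPM in F1, F6 and F2, at 138 and 117 CPM in F11 and F12, at 0.230 CPM in F7 and at 0 in F16 and F24. Cplx1 held nearly all complexin counts in F1, F2, F6, F11 and F12, from 63.1 to 2097 CPM, whereas Cplx2 led in F7 and F24 and F16 had neither. F11 and F12 shared Syt11, Syt7, Sncb, Rims2 and Rab3b at like levels, with Sncb at 522 CPM in each.

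Intronic counts gave a second readout. Over all cells 32 of the 39 members had an intronic count, 12 with under 5% of their counts in introns over all cells, 13 with 5% to 50%, and 7 (Syt2, Syt3, Syt6, Syn3, Sv2c, Rims1 and Rims2) with more. The members together had a median of 10.9% of their counts in introns per cell in BRP564 to BRP572, 6.76% in BRP528 to BRP543 and 51.2% in the F columns, where the range ran from 0.271% in F1 to 92.6% in F24. Over all genes the medians were 8.75%, 15.7% and 50.4%. When counts were summed over the cells of a run, the members had 10.4%, 12.7% and 28%, so the last 2 values rest on how cells are weighted. The 7 members listed at 0 intronic counts in every cell are included in the members' shares and lower them. Among them Snap25 and Nsf had 554206 and 294519 exonic counts in BRP528 to BRP543. Rims1 was nearly all intronic, with 3982 exonic and 86082 intronic counts in BRP528 to BRP543 and 2 exonic and 31485 intronic counts in the F columns. Syn3 had 12 exonic and 5271 intronic counts in BRP564 to BRP572. Syt6 had no exonic count in BRP528 to BRP543 and 821 intronic counts in 8 of its cells, and Sv2c had 0 exonic and 891 intronic counts in all 8 BRP564 to BRP572 cells. In F24, Syt1 had 83269 intronic counts. For Syt1 the intronic share was 78.3% in BRP564 to BRP572 (770 exonic counts), 27.2% in BRP528 to BRP543 (306775) and 55.1% in F (135506). The F value pools unlike cells. F1 had 97092 exonic and 23 intronic Syt1 counts, and F24 had 1482 exonic beside its 83269 intronic counts.

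The other 7 members, Snap25, Snap23, Syn1, Vamp2, Syp, Rab3a and Nsf, were listed at 0 intronic counts in all 28 cells, although Snap25 had 688644 exonic counts and 62185 bases of annotated intron. Vamp2 has 86 bases that are intronic in every transcript. Of all 8509 genes of both tables with at least 5000 exonic counts, 11.8% were listed at 0 too. Among the 2 nearest genes on each side with at least 1000 exonic counts, 14 of 28 were at 0 around these 7 members, with 4 of 4 around Syn1 and Syp, 2 of 4 around Snap25, Snap23 and Nsf, and 0 of 4 around Vamp2 and Rab3a, compared with 9 of 128 around the other 32 members, 4 of which lay around Napb with its 7000 intronic counts. A 0 was not read as absence of intronic RNA.

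**Figure D4:**
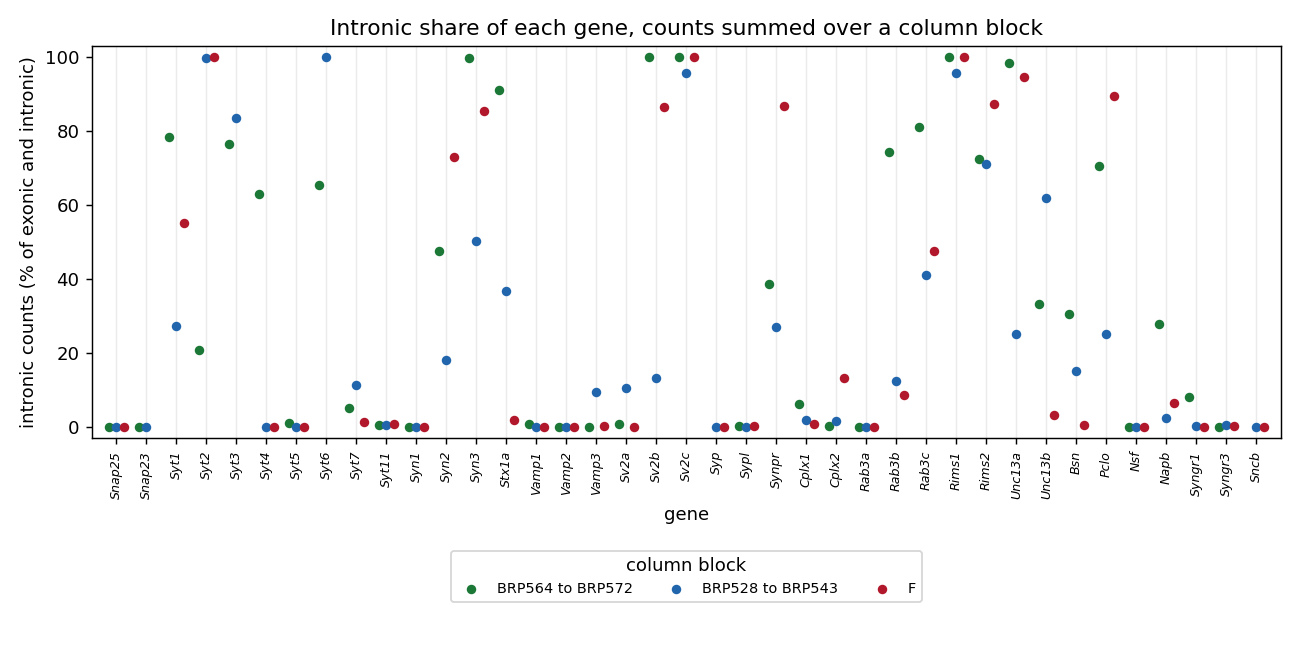
Intronic counts as a percentage of exonic and intronic counts for each of the 39 genes, summed over the cells of a run of column codes (colours), shown where at least 30 counts were present. Rims1 and Sv2c lie above 95% in each run, and Snap25, Snap23, Syn1, Vamp2, Syp, Rab3a and Nsf lie at 0.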

How the data were processed

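RNA of 28 single mouse brain cells was sequenced, and the authors deposited raw whole-number counts per gene and cell for exons and for introns, without normalization. The submitters' processing notes name bcl2fastq 2.17, STAR 2.4.0 and mm10. The counting tool, annotation and strand setting are not given in the sources used here. The members, lists and column runs were chosen with earlier results of these data known, and all members are named. Counts were scaled to CPM of exonic totals in each cell. Genes with a median of at least 5 CPM in either run were called at 4-fold, a median of 0 was set at 3 counts of the run's median total, and no test was made because cells are unassigned to samples. Lengths, positions and overlaps came from GENCODE M21 (GRCm38), and promoter windows from RefSeq. Alternatives were TMM (edgeR 4.0.16) and DESeq2 1.42.0 size factors, means, added intronic counts, no filter, thinning to 800000 counts, other lengths, counts summed over a run, F1 left out and, chosen after seeing the data, BRP528 and BRP529, F12 or F16 left out, low medians raised to the floor a minimum of 30 family counts, and thinning for the count of members at 0 in some cells. Amplified reads are not independent molecules. Python 3.11.15, pandas 2.3.3, numpy 2.4.6 and R 4.3.3 were used. Some genes of the other pathway lists are not reported here.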

Additional observations from a re-analysis of the deposited data

Results flagged for a closer look

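The highest and the lowest cell were compared with the rest in 16 groups of values, those of 10 cells or fewer, by Dixon's criterion, which chance meets in about 1 group in 20 of values free to vary, and 3 groups met it. Stx1a's share of the syntaxins was 0.616% in BRP568 and at most 0.151% in the other 7 cells of BRP564 to BRP572. Snap25's share of Snap25 and Snap23 was 99.96% in F11 and 100.0% in the other F cells, a gap that rests on 2 Snap23 counts. Vamp3's share of Vamp1, Vamp2 and Vamp3 was 96.3% in F2 and 0 in the other 4 F cells with a count of any of them. In the last 2 groups the other cells all sat at 100.0% or at 0, where any deviation meets the criterion, so its chance rate does not hold there. In the Stx1a group most cells also sat at 0, so the chance rate need not hold there either. The cells are not replicates.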

How the results depend on the processing

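Of 160 recomputed values over 32 results, 137 stayed within 1.5 times the count or within 1 SD over cells, and 23 did not. The counts of 27 higher and 3 lower members in BRP528 to BRP543 stayed within 24 to 30 and at 3. The count lower without overlap went from 0 to 1 when cells were thinned to 800000 counts (Sypl) and to 1 without BRP528 and BRP529 (Vamp3). For the F columns, the count of 1 higher member rose to 7 under DESeq2 scaling, 4 under TMM scaling, 3 with means, 2 with intronic counts added, 2 without the filter, 2 without F16, and fell to 0 without F1 and 0 without F12, and the count of 22 lower members was 9 with means, where the share over all genes fell from 93.4% to 55.0%. Without F12, 23 members were lower and a median of 26 were detected. The count of 1 lower without overlap became 0 under DESeq2 scaling, 7 without F1, 2 without F16 and 2 without BRP528 and BRP529, beside 10.5%, 24.4%, 18.7% and 21.2% of all genes. The median number of members detected in BRP564 to BRP572, BRP528 to BRP543 and F was 18, 32.5 and 14 at a minimum of 10 counts, and 33, 38 and 33 with intronic counts added. When thinned it was 17.5, 33 and 18.5, so that F then lay above BRP564 to BRP572. The cause was not tested. Family shares and intronic shares stayed within 1 SD over cells, but that SD is wide, and summing counts over a run moved Syt11 in F from 33.9% to 62.7%, Vamp3 in F from 0 to 33.4%, Stx1a in F from 0.642% to 7.41%, Vamp3 in BRP528 to BRP543 from 45.1% to 64.8% (25.6% without BRP528 and BRP529), and the intronic share from 51.2% to 28% in F and from 6.76% to 12.7% in BRP528 to BRP543. The leading gene of each cell was not recomputed with other lengths. No paired analysis was possible because the columns carry no replicate numbers. Levels in F16, the shallowest cell, rest on the fewest counts, and intervals for counts would cover counting error only.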
